A study of Mus musculus with 20 samples.

Results

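The E2F transcription factors and the RB pocket proteins were followed in sorted CD4 T cells through 10 genes, E2f1 to E2f8, Rb1 and Rbl1. Their probes were found by symbol among the 30199 gene names that the array files give, which returned 13 of the 39429 probes, with 2 probes each for E2f3, E2f7 and Rbl1. All 13 passed the detection filter and were among the 22264 probes tested. RNA was hybridised to 20 single-colour Agilent arrays, one sorted pool of cells from 8 to 15 mice per array. The mice were B6.Cg-Foxp3tm1Mal of both sexes, 8 to 14 weeks old, and every group carried this allele, in which EGFP reports Foxp3, the transcription factor that defines regulatory T (Treg) cells. Mice whose peripheral lymph nodes (pLN) were taken had been immunised subcutaneously with the protein KLH in Alum, 12 days (d12) or 25 days (d25) earlier. Peyer's patches (PP), the lymphoid follicles of the gut wall, were the other tissue, and their labels name neither immunisation nor day.

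The 12 groups were defined by sorting B220- CD4+ cells for GFP, PD1 and the carbohydrate epitope GL7. In pLN they were naive T cells (GFP-, PD1 low or absent, GL7-), follicular helper T (TFH) cells (GFP- PD1hi GL7+), Treg cells (GFP+ PD1- GL7-) and follicular regulatory T (TFR) cells (GFP+ PD1hi, GL7+ or GL7-). Each had 2 arrays on d12 and 1 array on d25. In PP the groups were TFH GL7+, TFH GL7-, Treg and TFR cells, with 2 arrays each. Pools hide the spread between mice, and the p-values below measure the spread between pooled samples only.

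E2F factors bind the promoters of genes needed for DNA synthesis and mitosis, most of them together with a DP partner (Tfdp1 or Tfdp2). Pocket proteins such as RB1 and RBL1 (p107) hold E2F factors inactive or turn them into repressors until cyclin-dependent kinases phosphorylate the pocket protein and release them. E2F1, E2F2 and E2F3 are usually classed as activators and E2F4, E2F5 and E2F6 as repressors, while the atypical E2F7 and E2F8 bind DNA without a DP partner and repress in the later part of the cell cycle. T cells are held in quiescence before antigen contact, and helper cells that enter a germinal centre response divide.

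Promoter sequence of 7 of the 10 genes was available from RefSeq (GRCm38.p6) as 9 windows that run from 250 bases before to 50 bases after a transcript start. E2f4, E2f5 and Rb1 had no entry. Sequences are shown because several members are known to be controlled by E2F factors themselves. Genes below that moved together can then be read against the windows available. Capitals mark any of 3 kinds of letters, sought on both strands, namely the 8-letter E2F words TTTCCCGC, TTTGGCGC, TTTCGCGC and TTTGCCGC, the cell cycle homology region (CHR) word TTTGAA and the CCAAT box. The 250 bases upstream of the start of E2f3 (chr13:29986064-29986313, minus strand), E2f7 (chr10:110745189-110745438, plus strand), E2f8 (chr7:48881597-48881846, minus strand) and Rbl1 (chr2:157204535-157204784, minus strand) follow, with the last 25 bases of an E2f2 window (chr4:136172299-136172323, plus strand), which lie downstream of its start.
E2f2: ttggcggcatatagTTTGGCGCtaa
E2f3: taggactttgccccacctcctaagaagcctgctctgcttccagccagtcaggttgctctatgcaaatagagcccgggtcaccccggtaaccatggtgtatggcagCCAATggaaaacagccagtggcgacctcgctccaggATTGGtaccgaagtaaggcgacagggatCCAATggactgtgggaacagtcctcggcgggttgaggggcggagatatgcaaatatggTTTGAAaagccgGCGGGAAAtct
E2f7: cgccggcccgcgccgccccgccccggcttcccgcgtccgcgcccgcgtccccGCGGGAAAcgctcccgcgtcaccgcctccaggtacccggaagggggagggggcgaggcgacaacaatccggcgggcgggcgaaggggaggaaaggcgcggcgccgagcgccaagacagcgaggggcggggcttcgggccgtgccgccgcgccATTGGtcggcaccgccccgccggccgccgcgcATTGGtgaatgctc
E2f8: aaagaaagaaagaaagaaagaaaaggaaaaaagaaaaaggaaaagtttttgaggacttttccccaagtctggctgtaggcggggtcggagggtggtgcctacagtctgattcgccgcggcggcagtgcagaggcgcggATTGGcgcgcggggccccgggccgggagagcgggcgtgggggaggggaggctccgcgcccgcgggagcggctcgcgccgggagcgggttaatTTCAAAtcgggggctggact
Rbl1: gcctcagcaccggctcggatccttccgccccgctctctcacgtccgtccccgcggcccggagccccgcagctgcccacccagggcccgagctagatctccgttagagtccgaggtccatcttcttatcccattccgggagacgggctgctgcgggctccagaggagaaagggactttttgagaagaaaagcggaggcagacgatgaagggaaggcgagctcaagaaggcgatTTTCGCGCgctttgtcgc

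An E2F word was present in 4 of the 9 windows, those of E2f2, E2f3, E2f7 and Rbl1, against 744 of all 32851 RefSeq windows (2.26%). E2f3 carried TTTCCCGC on the minus strand from base -11 to -4 before its start, and E2f7 carried it on the minus strand from -198 to -191. Rbl1 had TTTCGCGC from -18 to -11, whereas the E2f2 word TTTGGCGC lay from 40 to 47 after the start. The windows of E2f1, E2f6 and E2f8 held none of these 4 words, and neither did the other windows of E2f2 and E2f3. Such an absence says nothing of whether an E2F factor binds there. Part of the E2f1 window reads as coding sequence of the gene. The main start region of E2f1 may therefore lie outside the window searched. E2f8 held instead a CHR word on the minus strand from -20 to -15, found in 17.9% of all windows, and a CCAAT box on the minus strand from -112 to -108, found in 37.4%. These are letter matches and not measured sites. The probes were designed on another build (mm9), so no distance between a probe and these windows was taken.

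Marker genes followed the labels of the sorted cells in part. All 6 T follicular markers, such as Bcl6 and Cxcr5, were called higher and all 4 naive markers lower in pLN d12 TFH than in naive cells. All 4 Treg markers including Foxp3 were called higher in pLN d12 Treg than in naive cells. From Treg to TFR cells 5 of 6 follicular markers were called higher in pLN d12 and in PP. In pLN d12, however, 5 of 6 were called lower in TFR than in TFH cells. Against naive cells of pLN d12, 2 of 4 Treg markers were called higher in TFH cells. In Treg cells 3 of 6 follicular markers were called higher and 1 lower than in those naive cells. Between 43.0% and 58.0% of probes were detected per array, and arrays of the same group correlated at Pearson r of 0.955 to 0.986. The arrays lay on 5 slides, 2 for pLN d12, 2 for PP and 1 for pLN d25, so that the 4 cell types of a tissue and day shared each slide. The first PP slide stood apart. Summed intensity of 13 B cell markers was 24483 to 170384 there with all 13 detected, against 6991 to 17055 on the second PP slide with 11 to 13 detected and 6102 to 22434 on the pLN slides, although B220+ cells had been gated out. Summed intensity of 7 epithelial markers was 3525 to 8234 on that slide, 743 to 2264 on the second PP slide and 253 to 2055 on the pLN slides. In bulk pools such as these, fewer cells of a type and less RNA per cell cannot be told apart.

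Among the activators, E2f1 was low in naive cells and high in follicular cells of the lymph node. Intensities below are on a linear scale, normalised so that the 75th percentile of each array is 1500 and floored at 20. The E2f1 probe (A_55_P2317665, mm9 chr2:154385798-154385857, minus strand) read 219 and 251 in pLN d12 naive cells, 1069 and 1317 in TFH cells, 469 and 355 in Treg cells, and 2354 and 1907 in TFR cells. None of these 4 groups overlapped. On d25 the single arrays read 214 in naive, 870.4 in TFH, 213 in Treg and 1365 in TFR cells, and so kept both follicular groups above both others. In PP the probe read 541 and 632 in TFH GL7+, 595 and 659 in TFH GL7-, 355 and 169 in Treg and 931 and 538 in TFR cells. Both PP Treg arrays lay below all others of that tissue, and the TFR arrays enclosed those of both TFH groups.

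E2f1 rose by 2.34 on the log2 scale (SE 0.35, 5.05-fold) from naive to TFH cells of pLN d12, with an adjusted p of 0.000972 by limma with Benjamini-Hochberg adjustment over all probes tested. It rose by 2.38 from Treg to TFR cells of the same tissue (limma adjusted p = 0.00216) and by 1.53 in PP (limma adjusted p = 0.0188). A call required an adjusted p under 0.05 and at least a doubling or halving, that is 1 on the log2 scale. TFR exceeded Treg cells on 5 of 5 slides, by 1.39 to 2.68. The difference of E2f1 between TFR and TFH cells was not called in either tissue and ran from -0.23 to 1.14 over the slides.

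E2f2, an activator whose loss in mice is known to cause excessive T cell proliferation and autoimmunity, followed another order. Its probe (A_51_P368009, chr4:135750562-135750621, plus strand) read 4321 and 3580.2 in pLN d12 naive, 9294 and 7181 in TFH, 8544 and 7960.0 in Treg and 16200.3 and 13888 in TFR cells. Treg arrays thus fell between the TFH arrays, and TFR stood above both. On d25 it read 3136, 3785, 6889 and 9035 in the same order of groups. There the TFH array was close to the naive array and below the Treg array. PP cells read 2246 and 3125 (TFH GL7+), 2596 and 2131 (TFH GL7-), 4909.8 and 4092 (Treg) and 4614 and 3723 (TFR). In PP both regulatory groups stood above both TFH groups, and Treg and TFR arrays overlapped.

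E2f2 was called higher in both TFH (1.05, SE 0.23, limma adjusted p = 0.00804) and Treg cells (1.07, limma adjusted p = 0.0252) than in naive cells of pLN d12. The TFH call was lost with 4 of 11 alternative settings, and the Treg call with 6 of 11, including each left-out array. From Treg to TFR cells E2f2 differed by 0.86 in pLN (limma adjusted p = 0.0355), under the fold required. The slides gave 0.92, 0.80 and 0.39 in pLN against -0.09 and -0.14 in PP. The tissue difference of that step was -0.98 and was not called. TFR exceeded TFH cells on all 5 slides by 0.25 to 1.26, and with 0.88 in pLN d12 the limma adjusted p was 0.0514, and 0.0115 with the slide as a fixed block.

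E2f3, the activator most tied to proliferation in many tissues, was read by 2 probes on the same gene. The brighter one (A_52_P583458, chr13:29998480-29998539, minus strand) read 595 and 942 in pLN d12 naive, 2057 and 2295 in TFH, 1516 and 1467 in Treg and 3049.6 and 3103 in TFR cells. These groups did not overlap, and the d25 arrays, at 1083, 2082, 1473 and 3396, came in the same order. PP values were 1133 and 1105 in TFH GL7+, 1176 and 1146 in TFH GL7-, 885 and 878 in Treg and 1645 and 1779.6 in TFR cells. TFR cells were highest in both tissues and both days. The rise was 1.54 from naive to TFH (limma adjusted p = 0.000352) and 1.04 from Treg to TFR cells of pLN d12 (limma adjusted p = 0.00701). In PP the step from Treg to TFR was 0.96 (limma adjusted p = 0.0102), just under the fold required, and all 5 slides gave between 0.89 and 1.21.

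The dimmer E2f3 probe (A_51_P487718), which spans an intron between chr13:30005369 and 30008755, was at the floor of 20 and not well above background on both pLN d12 naive arrays. TFH cells read 101 and 149 there, Treg cells 111 and 87.9 and TFR cells 209 and 246. TFH cells were at least 1.99-fold and Treg cells at least 1.61-fold above naive cells. Both probes therefore put naive cells lowest and TFR cells highest on d12.

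**Figure D1:**
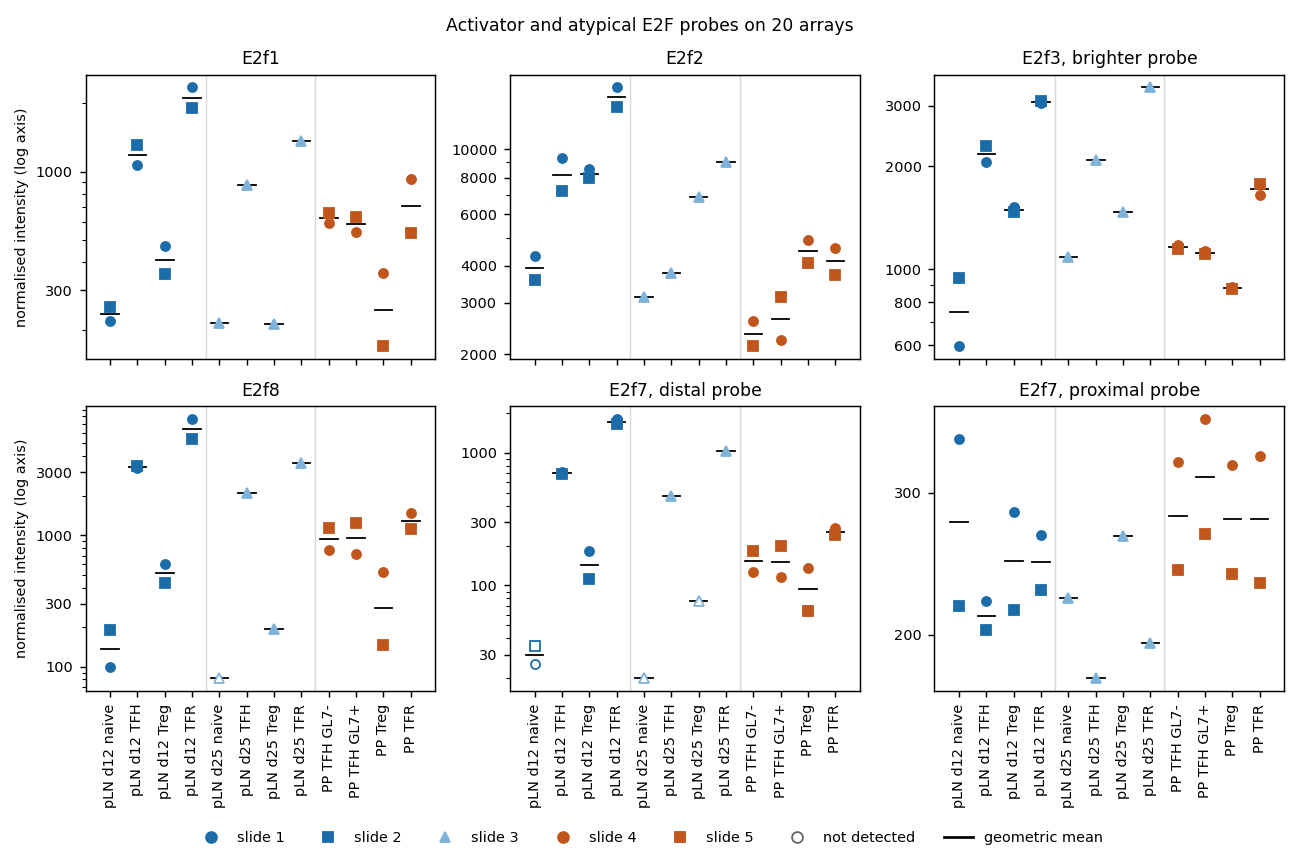
Normalised intensity (log axis) of E2f1, E2f2, the brighter E2f3 probe, E2f8 and both E2f7 probes on each of the 20 arrays, by group along the horizontal axis. Points are arrays with a shape and colour per slide, open where the probe was not detected, and bars are geometric means. E2f8 runs from 81.8 in pLN d25 naive cells to 7598 in pLN d12 TFR cells, and the proximal E2f7 probe only from 177 to 369.9.

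E2f8 and 1 of the 2 E2f7 probes spanned the widest ranges of the 13 member probes, whereas the other E2f7 probe spanned only 1.78-fold over the group means. E2f8 (A_55_P2000833, chr7:56121860-56121919, minus strand) read 98.8 and 191 in pLN d12 naive, 3219 and 3345 in TFH, 607 and 430.5 in Treg and 7598 and 5428 in TFR cells. The arrays of these groups did not overlap. On d25 the arrays read 81.8 in naive cells, where the probe was not detected, 2108 in TFH, 194 in Treg and 3517 in TFR cells. PP arrays read 725 and 1235 in TFH GL7+, 771 and 1133 in TFH GL7-, 524 and 147 in Treg and 1486 and 1107 in TFR cells. PP follicular groups overlapped one another and lay above PP Treg cells. Between the 12 group means E2f8 differed by at least 54.9-fold, since the lowest, pLN d25 naive, was not well above background.

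E2f8 rose 23.9-fold from naive to TFH cells (4.58 on the log2 scale, SE 0.55, limma adjusted p = 0.000238) and 12.6-fold from Treg to TFR cells of pLN d12 (3.65, limma adjusted p = 0.0023). In PP the step from Treg to TFR was 2.21 (limma adjusted p = 0.0266), and the larger of its slide values, 2.92, was that of the second slide. B cell markers summed to 114365 in Treg and 170384 in TFR cells on the first PP slide and to 17055 and 14359.5 on the second, and their part in this result was not tested. Leaving the first PP slide out gave 2.92 for E2f8 (limma adjusted p = 0.0441) and 1.67 for E2f1 (limma adjusted p = 0.0466). Leaving out PP Treg replicate 2, the lower of the Treg arrays, gave 1.29 for E2f8 (limma adjusted p = 0.183) and 0.99 for E2f1 (0.143), and both calls were lost.

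The 2 probes of E2f7, the other atypical factor, disagreed. The distal one (A_55_P2062598, chr10:110224331-110224390), which starts at base 5366 of its transcript, read 25.5 and 35.0 in pLN d12 naive cells without detection, 713 and 691 in TFH, 181 and 112 in Treg and 1790.2 and 1657 in TFR cells. On d25 it read 469 in TFH and 1037 in TFR cells and was not detected in naive cells, at 20, or Treg cells, at 76.4. The order matched that of E2f8. PP arrays read 115 and 197 in TFH GL7+, 127 and 182 in TFH GL7-, 135 and 64.7 in Treg and 270.2 and 239.9 in TFR cells, where the TFR arrays stood above all others.

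The proximal E2f7 probe (A_55_P2020894, chr10:110219255-110219314), from base 2338, was detected on all 20 arrays and read only 177 to 369.9. Its group means spanned 1.78-fold against at least 28.0-fold for the distal probe, and over the 12 group means the probes correlated at r = -0.42, a description in which all points share arrays and the distal probe was not detected in 3 groups. The limma F test over the 12 groups, which leaves slides unmodelled, gave the distal probe an adjusted p of 3.57e-05 and the proximal probe 0.757, where 33.6% of all probes passed. The proximal probe was lower on the second slide in all 4 groups of pLN d12 and of PP, by medians of -0.31 and -0.46 on the log2 scale. Within slides TFH minus naive cells gave it -0.67 to -0.10 on 3 slides, and TFR was above Treg cells on 2 of 5. By the distal probe E2f7 was at least 11.4-fold higher in TFH than in naive cells and at least 2.31-fold higher in Treg than in naive cells, and it was 12.1-fold higher in TFR than in Treg cells of pLN d12 (3.60, limma adjusted p = 0.000441). In PP the last step was 1.44 (limma adjusted p = 0.0368), with 1.89 (limma adjusted p = 0.0619) without the first slide and 0.91 (0.273) without PP Treg replicate 2. Statements on E2f7 hereafter rest on the distal probe, the dimmer on average, which was chosen after the values of both were seen.

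Of the repressor class, no gene was called in any of the 14 comparisons when slides were not modelled. E2f4 (A_51_P157524, chr8:107829156-107829215, plus strand), the main E2F of resting cells, ranged from 25 without detection in a pLN d12 Treg array to 623 in a PP TFH GL7- array. Its values split by slide. In all 4 groups of pLN d12 and all 4 of PP the array of the second slide was higher, with medians of 1.96 and 1.32 on the log2 scale. The first slide of each tissue was labelled from 50 ng of RNA and the second from 40 ng, and the part of this in the split was not tested. E2f5 (A_52_P109319, chr3:14605676-14605735) lay between 177 and 448.9 and was likewise higher on the second slide in every group, by medians of 0.60 and 0.66. E2f6 (A_52_P270164, chr12:16833463-16833522), which represses within a Polycomb-type complex without binding pocket proteins, stayed between 1624 and 3165 and its group means differed by no more than 1.64-fold. It too was higher on the second slide in every group, by medians of 0.26 and 0.33. The limma F test, which leaves slides unmodelled, gave an adjusted p of 0.477 for E2f4, 1.00 for E2f5 and 0.568 for E2f6. With the slide as a fixed block, E2f4 was called higher in TFR than in Treg cells of pLN d12 (1.56, limma adjusted p = 0.00425), although 1 of these Treg arrays did not detect it, and TFH exceeded naive cells by 0.93 (0.0308), under the fold required. Within slides E2f4 was higher in TFH than in naive cells on 3 of 3, by 0.75 to 1.10, and higher in TFR than in Treg cells on 4 of 5. E2f6 was higher in TFR than in Treg cells on 5 of 5 slides, by 0.14 to 0.38, and the blocked difference in pLN d12 was 0.35 (limma adjusted p = 0.0461), under the fold required.

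**Figure D2:**
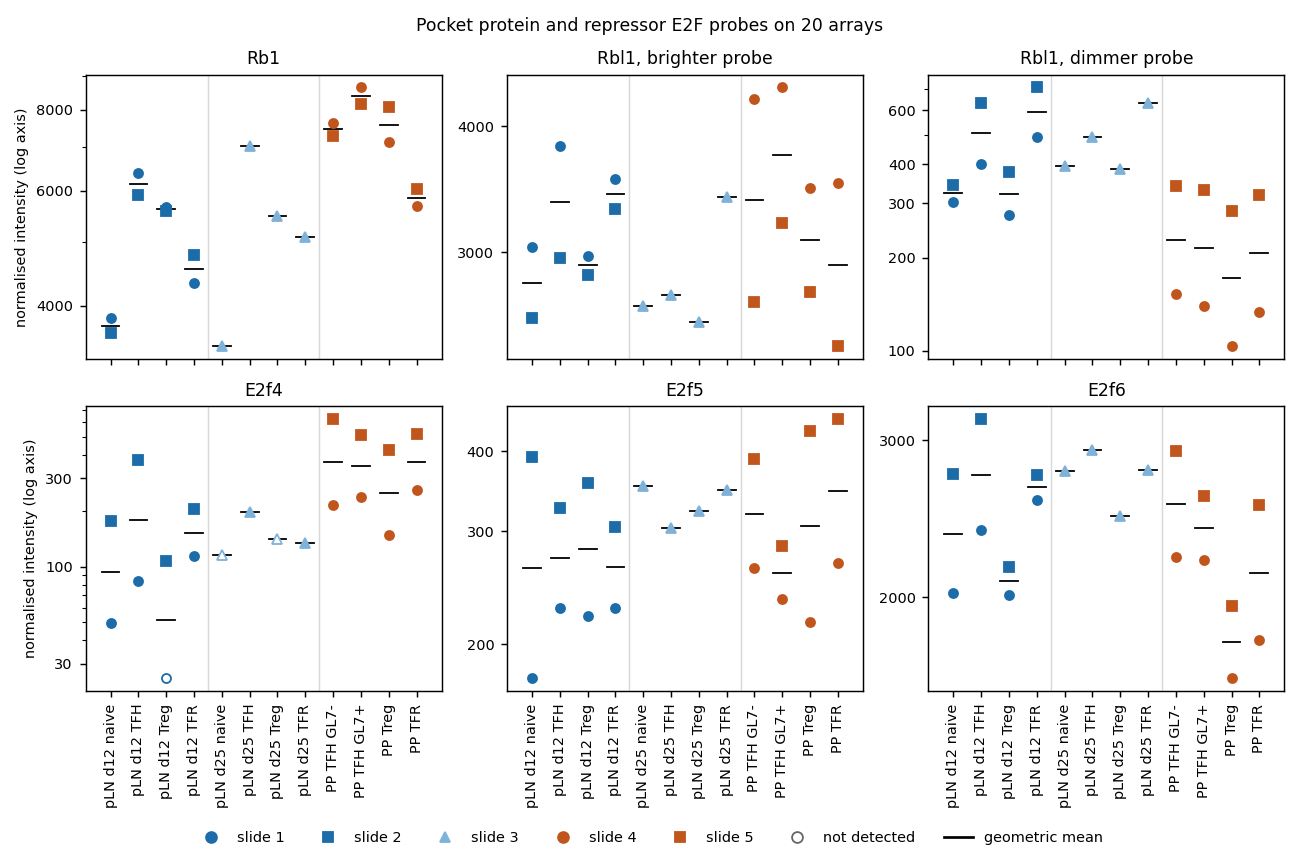
Normalised intensity (log axis) of Rb1, both Rbl1 probes, E2f4, E2f5 and E2f6 on each of the 20 arrays, by group along the horizontal axis, with a point shape and colour per slide, open points where a probe was not detected and bars at geometric means. Rb1 runs from 3462 to 8655 with replicates close together, whereas the second slide (squares) lies above the first (circles) in every group for E2f4.

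Rb1, which encodes the founding pocket protein, moved over a narrow range with tight replicates. Its probe (A_51_P136888, chr14:73595408-73595467, minus strand) read 3825 and 3630.4 in pLN d12 naive, 6400.4 and 5920.0 in TFH, 5671 and 5584 in Treg and 4327 and 4785 in TFR cells. TFR arrays lay below TFH and Treg arrays and above naive arrays, an order that no E2F member showed. The d25 arrays read 3462, 7039, 5493 and 5093 in the same order of groups. PP arrays read 8655 and 8172 in TFH GL7+, 7634 and 7287 in TFH GL7-, 7126 and 8063 in Treg and 5683 and 6042 in TFR cells. TFR was again the lowest of the PP groups without overlap.

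Rb1 rose by 0.72 from naive to TFH cells (SE 0.14, limma adjusted p = 0.00415) and by 0.59 from naive to Treg cells (limma adjusted p = 0.041), both under the fold required. From Treg to TFR cells it differed by -0.31 in pLN d12 (limma adjusted p = 0.222), and the difference was below 0 on 5 of 5 slides, between -0.42 and -0.11. TFR lay below TFH cells on 5 of 5 slides as well, by -0.61 to -0.31. The change from naive to TFH minus the change from Treg to TFR was 1.03 (SE 0.20, limma adjusted p = 0.0247), and Rb1 was the only 1 of the 13 probes called in that difference, where 2.18% of all probes were called. That call was lost with 9 of 15 alternative settings, including every left-out array but 1, while the value stayed between 0.96 and 1.10.

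Rbl1, encoding the pocket protein p107 that pairs with the repressor E2Fs, was not called in any comparison by either probe when slides were not modelled. The brighter one (A_51_P286665, chr2:156972143-156972202, minus strand) lay between 2418 and 4374 and spanned 1.46-fold over the group means. It was lower on the second slide in all 4 groups of each tissue. The dimmer one (A_55_P2024773, chr2:157000761-157000820) lay between 103 and 709.6, was higher on the second slide in all 4 groups of each tissue, and was highest on average in pLN TFR cells. With the slide as a fixed block it stood 0.88 above Treg in the TFR cells of pLN d12 (limma adjusted p = 0.00101), under the fold required, and the brighter probe by 0.24 (0.116). With the slide as a random block the dimmer probe was called lower in PP than in pLN d12 TFR cells (-1.52, limma adjusted p = 0.0363), and the brighter one was not (-0.23, 0.585). The probes moved in opposite directions between slides, so that neither the level nor the order of Rbl1 was settled by these arrays.

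Counting probes, 6 of 13 were called higher and none lower from naive to TFH cells of pLN d12, namely those of E2f1, E2f2, E2f3 (both probes), E2f7 and E2f8. Of all probes tested 14.7% were called there, 9.27% as higher. From Treg to TFR cells 4 of 13 were called higher in pLN d12 (E2f1, E2f3, E2f7 and E2f8, against 8.35% of all probes and 5.79% as higher) and 3 of 13 in PP (E2f1, E2f7 and E2f8, against 9.25% and 6.23%). From naive to Treg cells 3 of 13 were called higher (E2f2, E2f3 by the dimmer probe and E2f7, against 3.76% and 2.86%). For the dimmer E2f3 probe and E2f7, naive cells were not well above background. The dimmer E2f3 probe has bounds short of a doubling against naive cells, 1.61-fold for Treg cells and that given above for TFH cells. Both of these calls rest on the floor value. Without the slide in the fit, called members lay in the activator and atypical classes in each of these comparisons.

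**Figure D3:**
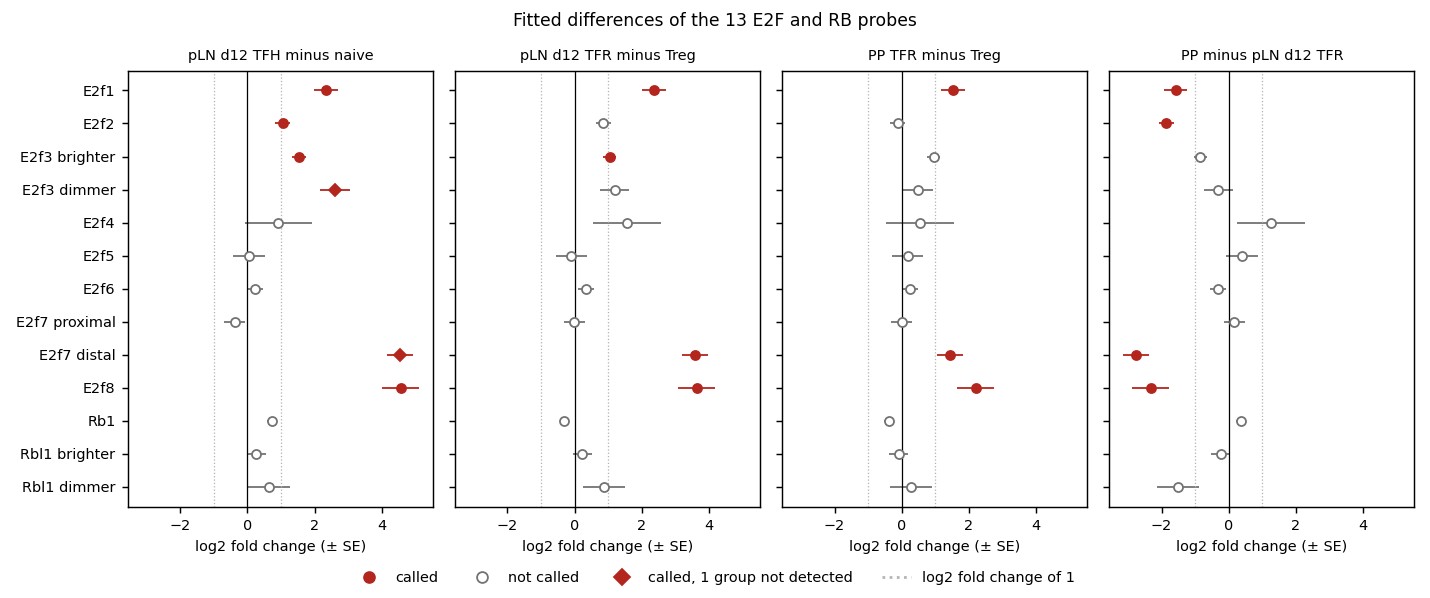
Fitted log2 fold changes of the 13 probes with bars of 1 SE in 4 comparisons, filled red where called and open where not; diamonds mark differences against a group in which the probe was not detected, whose fold is known only as a bound, and dotted lines mark a log2 fold change of 1 in either direction. E2f8 stands at 4.58 from naive to TFH cells and at 3.65 from Treg to TFR cells of pLN d12, while E2f5, E2f6 and the proximal E2f7 probe lie near 0.

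The direct comparison of TFR with TFH cells gave no call among the members. In pLN d12, 5 of 13 had an unadjusted limma p under 0.05, as had 3517 of all 22264 probes tested. Of the members 0 were called (5.01% of all probes), with 1.29 for E2f7 (limma adjusted p = 0.0929) next to the E2f2 value above. In PP, 3 of 13 had an unadjusted limma p under 0.05, as had 2548 of all 22264 probes, and 0 were called (3.44% of all probes). Between PP TFH cells with and without GL7, limma called 0 of 13 members, 0 had an unadjusted p under 0.05, and 2 of all probes (0.00898%) were called. The methods' t-test on the same arrays found 0 members at an unadjusted p under 0.05 and 0 after Benjamini-Hochberg adjustment.

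**Figure D4:**
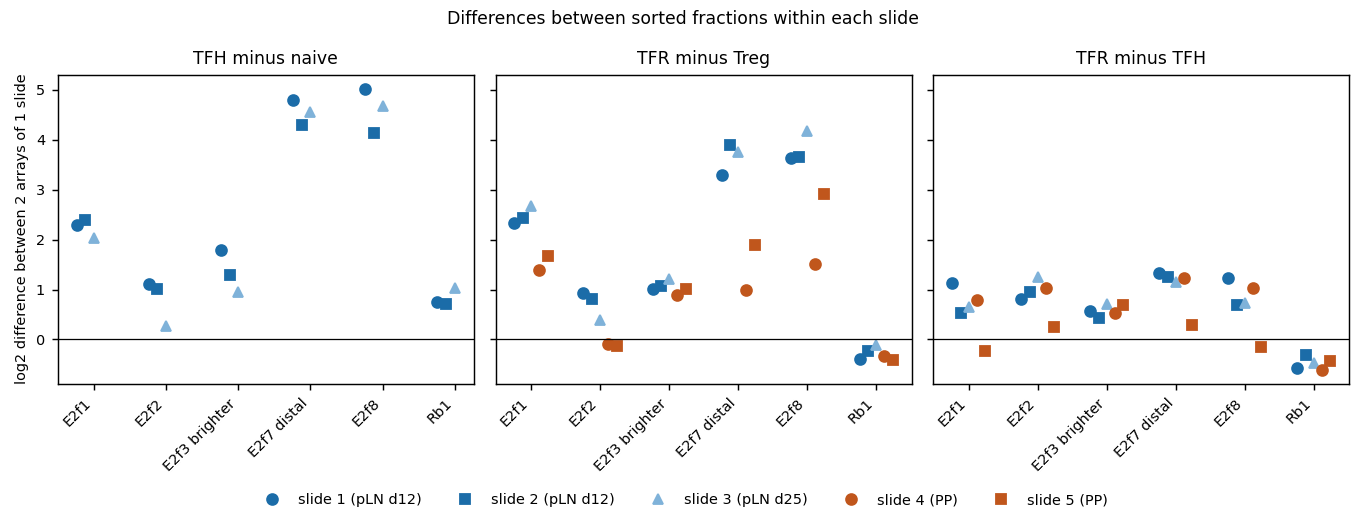
Log2 differences between 2 arrays of the same slide for E2f1, E2f2, E2f3 (brighter probe), E2f7 (distal probe), E2f8 and Rb1, where 1 point is 1 slide (3 slides for TFH minus naive and 5 for the others, with TFH GL7+ as the TFH cells of PP). The distal E2f7 probe was not detected in naive cells on any slide. TFR minus Treg is above 0 on 5 of 5 slides for E2f1, E2f3, E2f7 and E2f8 and below 0 on 5 of 5 for Rb1.

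The lymph node and Peyer's patch groups of the same name differed for several members. TFR cells of PP lay below TFR cells of pLN d12 with 4 of 13 probes called lower and none higher, against 11.1% of all probes called and 5.39% as lower. E2f7 differed by -2.76 (limma adjusted p = 0.00166), E2f8 by -2.32 (0.018), E2f2 by -1.86 (0.000877) and E2f1 by -1.58 (0.014). For TFH GL7+ cells 2 of 13 were called lower in PP, E2f7 by -2.22 (limma adjusted p = 0.0115) and E2f2 by -1.62 (0.0041), against 4.54% and 2.18%. Treg cells gave 0 of 13 calls, where 2.24% of all probes were called. An unadjusted limma p under 0.05 was found for 4 of 13, and for 3248 of all 22264 probes. Tissue and slide cannot be told apart in these comparisons, nor can any part of immunisation, which the PP labels do not name. Over 11 alternative settings, the calls of E2f8 in TFR cells were lost with 5 and those of E2f1 with 4, and those of E2f2 and E2f7 with 0. With the slide as a random block, E2f2 and E2f7 kept their calls in TFR cells (limma adjusted p = 0.01 and 0.0354), E2f1 (0.103) and E2f8 (0.174) lost theirs, and the dimmer Rbl1 probe gained one. Without the first PP slide all 4 kept their calls in TFR cells, and neither call in TFH GL7+ cells held.

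The change from Treg to TFR compares arrays of the same slide. The tissue difference of that change was not called for any member (0 of 13, against 0.548% of all probes). An unadjusted limma p under 0.05 was found for 2 of 13 members and for 1818 of all 22264 probes. The E2f7 value was the largest given here. The tissue difference was -2.15 for E2f7 with a limma adjusted p of 0.162. The smaller number of calls in PP does not, therefore, show that the step differed between the tissues.

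Day 25 rested on 1 array per group, whose spread was taken from the groups with 2. Against d12, limma called 0 of 13 members in TFH cells (0.0314% of all probes) and 0 of 13 in TFR cells (0.00898%). E2f2 alone had an unadjusted p under 0.05 in each, with differences of -1.11 in TFH and -0.73 in TFR cells. For E2f1, E2f7 and E2f8 the order of the highest groups was pLN d12 TFR, d25 TFR, d12 TFH, d25 TFH and then PP TFR. The d25 TFR and d12 TFH means in that order were close for E2f8, at 3517 and 3282, and for E2f1, at 1365 and 1193.

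Other genes of the pathway were counted in lists with 1 probe per gene. Of all probes tested, 9.27% were called higher from naive to TFH and 5.79% from Treg to TFR cells of pLN d12. Of 22 E2F target genes of DNA replication, 16 were called higher in TFH than in naive cells of pLN d12 (median 1.88) and 17 higher in TFR than in Treg cells (median 2.26), with none lower. Thymidine kinase Tk1 rose by 4.64 and 3.07 in these steps, the helicase loader Mcm10 by 4.20 and 3.36, the ribonucleotide reductase subunit Rrm2 by 4.03 and 2.85 and the origin recognition subunit Orc1 by 3.58 and 3.73. In PP 9 of the 22 were called higher from Treg to TFR (median 1.09), against 6.23% of all probes. In TFR cells 18 of 22 were called lower in PP than in pLN d12 (median -1.65), against 5.39% of all probes. Tissue and slide cannot be told apart there, and the lists were not run with the slide as a block. The median over all probes from naive to TFH was -0.09, and -0.14 with scaling alone. Of 12 mitosis genes, 11 were tested and all 11 were called higher in both pLN steps (medians 4.13 and 3.15), among them the proliferation antigen Mki67, by 4.54 and 3.49, and the spindle checkpoint kinase Bub1, by 4.80 and 3.28. Summed intensity of the mitosis genes was 3471 and 4987 in pLN d12 naive, 81123 and 71208 in TFH, 21984 and 12135 in Treg and 154996 and 109423 in TFR cells. In pLN d12 that is the same order of groups as for E2f1, E2f7 and E2f8. As few as 19 of the 22 replication genes and 8 of the 12 mitosis genes were detected on a pLN d12 array. Some changes of these lists may therefore start near background, and no bounds are given for them.

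Regulators of the pocket proteins moved less uniformly. The DP partner Tfdp1 was called higher in both pLN steps (1.30 and 1.14), while Tfdp2 (0.62 and 1.03) and Rbl2 (0.02 and 0.39), the remaining pocket protein, were not called and are named only to complete the list. Of 9 cyclins and kinases that phosphorylate RB, 8 were tested. Of these 3 were called higher from naive to TFH (9.27% of all probes) and 2 from Treg to TFR (5.79%). Ccna2 stood at 4.37 and 2.98 and Ccne1 at 2.15 and 2.10. The kinase Cdk6 stood at 2.81 in the first step and 1.44, not called, in the second. The D-type cyclins were not called in either step, with Ccnd1 at 0.20 and 0.77, Ccnd2 at -0.30 and -0.36 and Ccnd3 at -0.64 and -0.21. Among 7 inhibitors of these kinases, Cdkn1a (4.61), Cdkn2a (3.07), Cdkn2b (2.53) and Cdkn2c (2.39) were called higher from naive to TFH and Cdkn2d, chosen after its value was seen, lower (-1.12). Cdkn2a, which encodes the inhibitor p16INK4a and the protein ARF, was called 3.22 higher in TFR than in Treg cells of pLN d12, and differed by -4.74 between PP and pLN d12 TFR cells. Inhibitors and activating cyclins were thus called higher in the same sorted fractions. As few as 4 of the 7 inhibitors and 6 of the 9 cyclins and kinases were detected on a pLN d12 array. Some of these changes may therefore start near background, and no bounds are given for them.

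The complexes that share work with E2F factors showed mixed counts. In the MuvB complex and its partners, 2 of 7 genes were called higher in each pLN step, against 9.27% and 5.79% of all probes. Both were partners that act on cell cycle genes, Mybl2 (3.29 and 3.29) and Foxm1 (3.18 and 3.06). In either direction, 14.7% and 8.35% of all probes were called in these pLN steps and 9.25% from Treg to TFR in PP. Of 7 genes of the E2F6 repressor complex 0 were called in either pLN step or in PP, as for E2f6 itself. Of these Rybp, named after its value was seen, passed the limma adjusted p but not the fold required, with -0.98 from naive to TFH (limma adjusted p = 0.00455) and -0.85 from Treg to TFR cells (0.0179) of pLN d12.

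**Figure D5:**
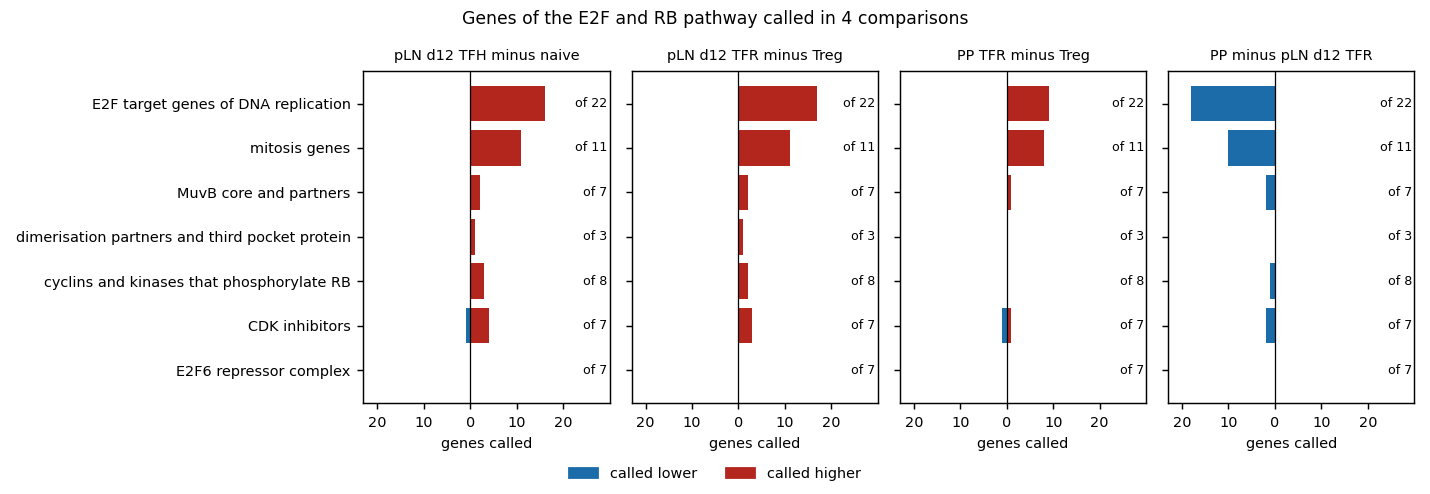
Number of genes called higher (red bars, to the right of 0) and lower (blue bars, to the left) in each of 7 pathway lists, in 4 comparisons, with the number of genes tested printed at the right of each row. The replication and mitosis lists hold the longest bars, 16 of 22 and 11 of 11 from naive to TFH cells, where 9.27% of all probes were called higher. The E2F6 repressor complex has no bar.

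The probes most like each member over the 12 group means were sought among all tested, as a description in which all points share the arrays. E2f8 was most like Rrm2 (Pearson r = 0.998), Chaf1a (0.997) and Bub1b (0.997). E2f1 was most like Rad54b (0.992), Asf1b (0.992) and another probe of Tfdp1 (0.991). Among members, E2f1 and E2f8 correlated at 0.982, and the distal E2f7 probe correlated with E2f8 at 0.981 and with E2f1 at 0.952. E2f2 was most like Shmt1 (0.962), E2f3 like Acvr1 (0.982) and Rb1 like Gfi1 (0.967). The nearest probes of E2f1 and E2f8 were thus genes of DNA synthesis, chromatin assembly, repair and mitosis, and a DP partner. Those of the remaining members are not given.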

How the data were processed

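The authors sorted the cells, labelled RNA (40 or 50 ng per array) and scanned 4x180K arrays, and the deposited intensity values came from Agilent Feature Extraction 10.7.3.1, named in the submitters' processing notes. Each probe was printed as 4 features. The deposited quality marks (other, 0 or 1) give outliers and signal well above background. A deposited value table by the authors holds linear intensity, quantile normalised, with a 75th percentile of 1500 and a floor of 20, and was used as an alternative.

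Processed signals were averaged here over features as a geometric mean after outlier flags, values beyond 1.42 interquartile ranges and a pixel coefficient of variation above 0.5 were removed. They were then quantile normalised, scaled to 1500, floored at 20 and taken to log2. A probe was detected with at least 3 of 4 features well above background. Probes that both arrays of any duplicated group detected were tested with limma 3.58.1 in R 4.3.3 (12 group means, 8 residual degrees of freedom, Benjamini-Hochberg over 22264 probes). A probe below background in a whole group gave a fold only as a bound, against the higher of its own signal and the lowest detected signal per array. No probe was saturated. Local background was 24 to 78 except for 268 on pLN d12 TFR replicate 2. The number of arrays limits the precision.

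Named were all members and up to 4 called genes per list by size of change in either pLN d12 step, with a few more that the text marks as added or that complete a family. The 3 probes most like a member were named for E2f1 and E2f8, and only the nearest for E2f2, E2f3 and Rb1. For genes with several probes, the brightest stood for the gene in lists. The members and lists were chosen with earlier results of these data known. Replicate numbers follow deposit order, and slides were read from the array files. Alternatives covered the deposited value table, normexp background, scaling, the detection filter, the slide as a block, the samples fitted and each array left out. The fit was tested on simulated data. The result of 1 further gene list is not reported here.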

Additional observations from a re-analysis of the deposited data

Results flagged for a closer look

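The change of Rb1 from naive to TFH cells was larger than its change from Treg to TFR cells in pLN d12, and the difference between these changes was itself tested. It was 1.03 on the log2 scale (SE 0.20, limma adjusted p = 0.0247). This call was lost with 9 of 15 alternative settings. Rb1 rose by 0.72 in the first step and read -0.31 in the second, and TFR arrays lay below TFH arrays on all 5 slides. Of the 13 B cell markers, 1 was called higher and 1 lower in the first step, and 0 in the second. Their median log2 fold changes were -0.56 and -1.47 in these steps, and their part in the Rb1 values was not tested.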

How the results depend on the processing

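Alternatives were run for the member probes and their counts of calls, not for the genes of the other lists. The 56 member differences followed in this way were those with an unadjusted limma p under 0.05 in the main fit, called or not. None changed direction, which says little, since the same arrays served to choose them. E2f1, E2f7 (distal probe) and E2f8 kept their calls from naive to TFH and from Treg to TFR cells of pLN d12 under all 11 alternatives run for each. The following counts of called members moved by more than 1.5 times, and the cause was not tested. From Treg to TFR in PP (3), the count was 1 without the detection filter and 0 with only the compared groups in the fit, and 0 to 3 with 1 array left out (0 without PP Treg replicate 2). Between PP and pLN TFH GL7+ cells (2), it was 4 with normexp, 1 with the slide as a random block, 0 with only the compared groups, 0 without the first PP slide and 1 to 2 with 1 array left out. From naive to Treg cells (3), it was 1 with normexp, 0 with only the compared groups and 0 to 2 with 1 array left out. For the difference between the helper and regulatory steps (1), it was 2 with the slide as a fixed block, 0 with only the compared groups, 0 without the first PP slide and 0 to 1 with 1 array left out. Between PP and pLN TFR cells (4) the count was 2 to 3 with 1 array left out. From 0, it became 1 for TFR against TFH cells of pLN with normexp and with scaling alone, 1 for PP against pLN Treg cells with scaling alone and 1 for the tissue difference with normexp. Counts of 5 to 6 and 3 to 4 remained for the steps to TFH and TFR in pLN with 1 array left out. The labels give no replicate numbers, and the slide pairs the cell types. With the slide as a fixed block 6 probes instead of 4 were called from Treg to TFR in pLN, with E2f4 and the dimmer E2f3 probe added. The shares of all probes called under the alternatives are not given here. The counts in this paragraph therefore cannot be read against them. Low signal limited E2f4, the distal E2f7 probe and the dimmer E2f3 probe, which were not well above background on some arrays.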
